A study of Homo sapiens with 15 samples.

Results

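7 genes that carry glutamine into the cell, make or break down glutamate, and produce aspartate or oxaloacetate were followed: SLC1A5, SLC38A2, GLUL, GLUD1, GOT1, GOT2 and PC. They were taken by symbol and were 7 of the 15320 genes listed for both cell lines (16382 for MRC5, 16076 for H196). MRC5 is a line of human lung fibroblasts. Its groups were MRC5_Mo, grown alone, MRC5_CoH69, grown beside H69 cells, and MRC5_CoH196, grown beside H196 cells. H69 is a neuroendocrine and H196 a non-neuroendocrine line of small cell lung cancer (SCLC), and H196 was also sequenced after growth alone (H196_Mo) or with MRC5 cells (H196_Co). Each of these 5 groups held 3 RNA-seq libraries, 15 in all, and no library of H69 itself was analysed here. No group carried a drug or a genetic change. According to the study's methods, partner cells sat on a porous membrane insert above the sequenced cells for a week, SCLC lines were kept in RPMI medium and MRC5 in MEM, and the replicates were prepared in parallel. The labels do not call the replicates separate cultures, so p-values measure the spread between these libraries, which may be technical.

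Glutamine enters cells mainly through sodium-dependent carriers such as SLC1A5 (ASCT2), which trades it for other neutral amino acids, and SLC38A2 (SNAT2), a concentrating carrier that cells raise when amino acids run short. Inside the cell GLUL, glutamine synthetase, makes glutamine from glutamate and ammonia, and GLUD1, the mitochondrial glutamate dehydrogenase, converts glutamate to α-ketoglutarate for the citric acid cycle. GOT1 in the cytosol and GOT2 in mitochondria are the aspartate aminotransferases, which interconvert glutamate plus oxaloacetate with α-ketoglutarate plus aspartate and serve the malate-aspartate shuttle. PC, pyruvate carboxylase, refills oxaloacetate from pyruvate without using glutamine. Proliferating cells use aspartate to build nucleotides and proteins, and fibroblasts of a tumor stroma are known for passing glutamine to cancer cells.

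On GRCh38.p13, the build of the deposited tables, SLC1A5 lies at chr19:46774883-46789043 and SLC38A2 at chr12:46358188-46372774. GLUL lies at chr1:182377541-182391790, GLUD1 at chr10:87042227-87094843, GOT1 at chr10:99396870-99430624, GOT2 at chr16:58705799-58734316 and PC at chr11:66848420-66958418. Among other sets, the Hallmark annotation in the tables puts GOT1, GOT2 and PC in the glycolysis set, GLUD1 and GOT2 in oxidative phosphorylation, SLC1A5 and GOT1 in mTORC1 signaling, GLUL in fatty acid metabolism and SLC38A2 in androgen response.

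Promoter sequence is shown for the member that rose most and the 3 that fell most in fibroblasts grown with H196 cells. Each line gives the 250 bases before the most upstream start listed by RefSeq on GRCh38.p14, 5′ to 3′. Capitals mark matches on either strand to ACGTG or GCGTG, the core letters of a hypoxia response element, to CACGTG, an E-box that contains ACGTG, or to TGATGNAA, a composite site of ATF4 and C/EBP.
SLC38A2, chr12:46372774-46373023, minus strand: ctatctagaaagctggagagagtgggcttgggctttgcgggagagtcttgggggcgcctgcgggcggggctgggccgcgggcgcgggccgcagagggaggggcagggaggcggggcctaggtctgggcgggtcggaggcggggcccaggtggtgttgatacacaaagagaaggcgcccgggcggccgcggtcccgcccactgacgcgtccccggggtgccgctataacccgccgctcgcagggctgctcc
GOT1, chr10:99430625-99430874, minus strand: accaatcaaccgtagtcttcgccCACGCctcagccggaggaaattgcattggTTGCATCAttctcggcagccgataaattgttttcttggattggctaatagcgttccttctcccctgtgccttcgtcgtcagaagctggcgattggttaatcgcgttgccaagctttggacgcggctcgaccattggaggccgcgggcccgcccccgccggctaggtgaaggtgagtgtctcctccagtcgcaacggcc
GOT2, chr16:58734317-58734566, minus strand: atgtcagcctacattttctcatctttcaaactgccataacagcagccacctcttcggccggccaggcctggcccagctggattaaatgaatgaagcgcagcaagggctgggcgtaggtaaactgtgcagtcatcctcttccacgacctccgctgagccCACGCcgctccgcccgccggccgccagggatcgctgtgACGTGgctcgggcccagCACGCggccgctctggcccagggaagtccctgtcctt
PC, chr11:66958384-66958633, minus strand: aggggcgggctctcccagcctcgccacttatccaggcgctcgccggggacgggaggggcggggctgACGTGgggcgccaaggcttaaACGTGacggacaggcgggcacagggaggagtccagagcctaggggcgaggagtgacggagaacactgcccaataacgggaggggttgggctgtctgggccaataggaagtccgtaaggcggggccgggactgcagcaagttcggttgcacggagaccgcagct
The SLC38A2 window held none of these letter strings. The GOT1 window held TGATGNAA on the reverse strand 198 bases before the start and GCGTG on the reverse strand 227 bases before it. The GOT2 window held ACGTG 54 bases before the start, with GCGTG on the reverse strand 92 and 37 bases before it, and the PC window held ACGTG 184 and 163 bases before the start. Of 35116 promoters of the same length in the RefSeq table, 18.5% held ACGTG, 32.2% GCGTG, 6.34% CACGTG and 3.14% TGATGNAA. A match is a description of letters and no evidence of binding, and a window without one says nothing about the factor.

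Library totals ran from 16073597 to 19170560 expected counts, which are estimates of reads per gene. The fibroblast markers, among them COL1A1, COL3A1, DCN and PDGFRB, were all at or above 1 CPM (a count scaled to a common library size) in MRC5 libraries. They summed to 26984 to 30036 CPM in MRC5_Mo, 30918 to 31924 CPM in MRC5_CoH69 and 12930 to 13686 CPM in MRC5_CoH196. In the H196 libraries the 9 fibroblast markers analysed summed to 2.05 to 3.21 CPM, and COL1A2 was at 0 in H196_Mo. Of 8 neuroendocrine markers, the 3 analysed in MRC5 summed to at most 1.12 CPM and the 6 analysed in H196 to 24.9 to 27.7 CPM, with NCAM1 at 0 in H196_Mo. The 5 non-neuroendocrine markers (YAP1, REST, VIM, AXL, MYC) were present in every group, at a sum of 5317 to 10546 CPM. Of 4 epithelial markers, 2 reached 1 CPM, their sum ran from 86.9 to 143 CPM in MRC5 and from 212 to 273 CPM in H196, and CDH1 was at 0 in the libraries of both lines grown alone. RNA of the partner was looked for with 99 genes of at least 20 CPM throughout H196_Mo that stayed under 0.5 CPM throughout MRC5_Mo. They summed to 8.68 to 10.8 CPM in the other MRC5 libraries and to 23.9 to 62.4 CPM in MRC5_CoH196, which is 0.297% to 0.777% of their level in H196_Mo. The reverse set of 160 genes summed to 15.6 to 16.1 CPM in H196_Mo and 19 to 21.1 CPM in H196_Co, at most 0.0562% of their level in MRC5_Mo. In bulk RNA, fewer cells of a type and less RNA per cell cannot be told apart.

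The carriers were the most abundant of the 7 transcripts in fibroblasts. On the FPKM scale, which divides fragments by transcript length and by depth, SLC38A2 stood at 208.8 ± 6.69 (SD, n = 3) in MRC5_Mo and 107 ± 9.03 in H196_Mo. SLC1A5 stood at 129.4 ± 2.22 in MRC5_Mo and 35.1 ± 1.14 in H196_Mo. In MRC5_Mo the order of mean FPKM went on with GOT2 at 63.2, GLUD1 at 52, GLUL at 36.1, GOT1 at 26.3 and PC at 4.40, and no library of a gene overlapped those of its neighbour in this order. In H196_Mo the order was SLC38A2, GOT2 at 68.6, GLUD1 at 60.7, GOT1 at 40.4, SLC1A5, GLUL at 7.55 and PC at 5.72, again with no overlap between neighbours. PC was the least abundant member in each of these groups, and GLUL was next to it in H196.

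**Figure D1:**
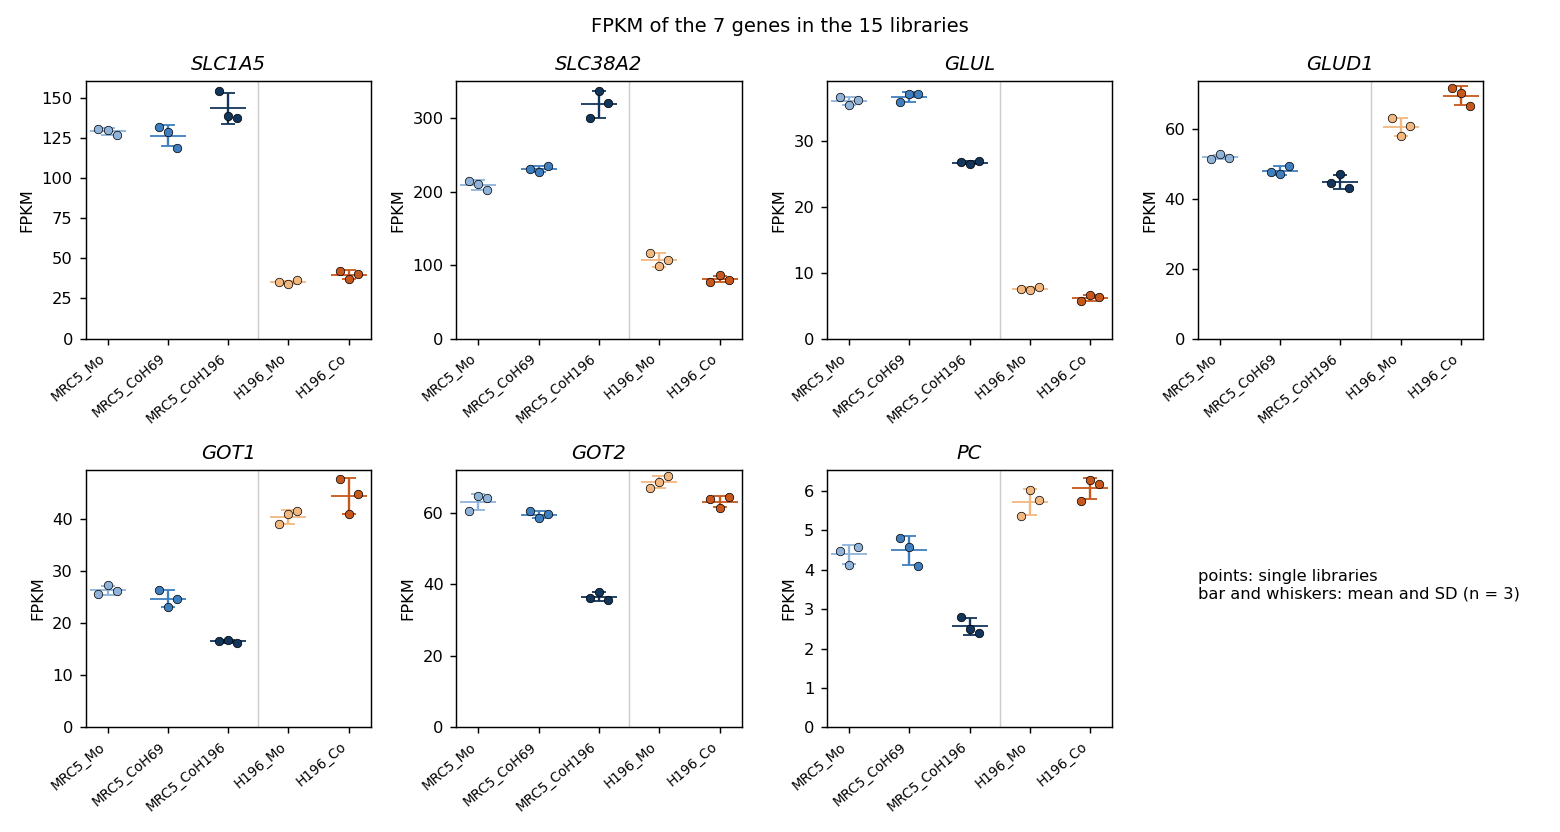
FPKM (linear axis from 0) of each gene in the 15 libraries, by group; points are single libraries, bars and whiskers the mean and SD of 3. SLC38A2 is highest in MRC5_CoH196 at 300 to 336 FPKM, while GOT1, GOT2 and PC are lowest there, at 16.1 to 16.7, 35.6 to 38.0 and 2.40 to 2.81 FPKM.

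SLC38A2, SLC1A5 and GLUL were higher in fibroblasts than in H196 cells when each line grew alone, and GOT1 was lower. In edgeR's quasi-likelihood test with Benjamini-Hochberg adjustment over the 13585 genes tested, the log2 fold change of MRC5_Mo over H196_Mo was 2.72 (SE 0.0588, adjusted p = 8.67e-26) for GLUL, or 6.61-fold. It was 2.33 (SE 0.0613, adjusted p = 1.05e-23) for SLC1A5 and 1.40 (SE 0.0567, adjusted p = 3.33e-19) for SLC38A2. GOT1 had −0.18 (SE 0.0660, adjusted p = 0.0133), a call lost without MRC5_Mo replicate 1 (adjusted p = 0.0571) or without H196_Mo replicate 3 (adjusted p = 0.0581). On log2(FPKM + 1) GOT1 had −0.60 (adjusted p = 3.75e-08, limma). 6 of 7 members were called at an adjusted p under 0.05, against 86.6% of all genes tested, and 3 of 7 passed the fold limit given below, against 61.7%. The direction of GLUD1, GOT2 and PC depended on the scaling. On counts scaled by edgeR's TMM factors, 0.814 to 1.26 over the 15 libraries, their log2 fold changes were 0.22, 0.32 and 0.042. On log2(FPKM + 1), to which these factors were not applied, they were −0.22, −0.12 and −0.32. The median of all genes was shifted by −0.34 on that scale. The lines came in separate tables and, per the study's methods, were kept in different media (MEM for MRC5, RPMI for H196). The line, its medium and the table or run therefore cannot be told apart.

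In fibroblasts grown with H196 cells the carriers rose, while both aspartate aminotransferases, pyruvate carboxylase and glutamine synthetase fell. SLC38A2 rose 1.72-fold and SLC1A5 1.28-fold, and GOT2, PC, GOT1 and GLUL fell to 0.652, 0.674, 0.706 and 0.83 of their level in MRC5_Mo. GLUD1 did not pass the test. 6 of 7 members were called, beside 74.3% of the 12819 genes tested in MRC5, so that a call alone does not set the members apart from other genes. 2 of 7, SLC38A2 and GOT2, also passed the study's fold limit for a differentially expressed gene (DEG), an absolute log2 fold change above 0.58, against 31.9% of all genes. Called higher were 2 members, against 37.2% of all genes, and called lower 4, against 37.1%. For 6 of 7 members no MRC5_CoH196 library fell within the range of MRC5_Mo, against 75.5% of all genes. The values below are CPM scaled by edgeR's TMM factors, the scale of the test within a line.

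SLC38A2, the concentrating carrier, had 925.9, 904.4 and 869 CPM in the MRC5_Mo libraries and 1467.2, 1607.5 and 1574.5 CPM in MRC5_CoH196. The groups did not overlap, and the log2 fold change was 0.78 (SE 0.0421, adjusted p = 1.44e-14). SLC1A5, the exchanger, had 299.7, 296.5 and 289.4 CPM against 406.3, 352.1 and 371 CPM. All 3 co-cultured libraries lay above those grown alone, and the log2 fold change was 0.35 (SE 0.0493, adjusted p = 6.48e-07). On log2(FPKM + 1), where the median of all genes moved by −0.13, the change of SLC1A5 was 0.15 to SLC38A2's 0.61, and both were still called.

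GOT2, the mitochondrial aminotransferase, went from 124.4, 132.4 and 131.3 CPM in MRC5_Mo to 84.3, 86.1 and 82.8 CPM in MRC5_CoH196. Its log2 fold change was −0.62 (SE 0.0442, adjusted p = 4.20e-12), and every co-cultured library was below every library grown alone. GOT1, its cytosolic counterpart, went from 41.5, 44.1 and 42.6 CPM to 30.7, 30 and 29.7 CPM, a log2 fold change of −0.50 (SE 0.0579, adjusted p = 2.52e-08). Both enzymes of the pair were thus lower in each of the 3 co-cultured libraries. PC, which supplies oxaloacetate from pyruvate, had 16.4, 15.1 and 16.4 CPM alone and 11.9, 10.4 and 10.1 CPM with H196 cells, a log2 fold change of −0.57 (SE 0.0885, adjusted p = 2.96e-06) just under the fold limit. Its expected counts were the lowest of the members, at 177 to 209 in MRC5_CoH196.

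The glutamate enzymes moved less. GLUL had 114.5, 109.8 and 115.4 CPM in MRC5_Mo and 96.5, 91.4 and 93.9 CPM in MRC5_CoH196, with no overlap. Its log2 fold change was −0.27 (SE 0.0439, adjusted p = 5.76e-06). GLUD1 had 149.4, 152.3 and 149.3 CPM against 146.7, 151.3 and 142.3 CPM. Its groups overlapped, and its log2 fold change of −0.035 had a 95% confidence interval of −0.12 to 0.052 (adjusted p = 0.459). On log2(FPKM + 1) GLUD1 had −0.21 and was called (adjusted p = 0.000598, limma), beside the shift of −0.13 in the median of all genes. GLUD1 was the only member with fractional expected counts, in 11 of 15 libraries. GLUD2, its near-identical retrocopy, had them in as many, at 0 to 2.51 counts beside 2498 to 3738 for GLUD1. The split of reads between them is thus uncertain, though the estimates place few counts in GLUD2. The sum of fibroblast markers and the partner's RNA given above moved with the same contrast, and their part in these changes was not tested.

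**Figure D2:**
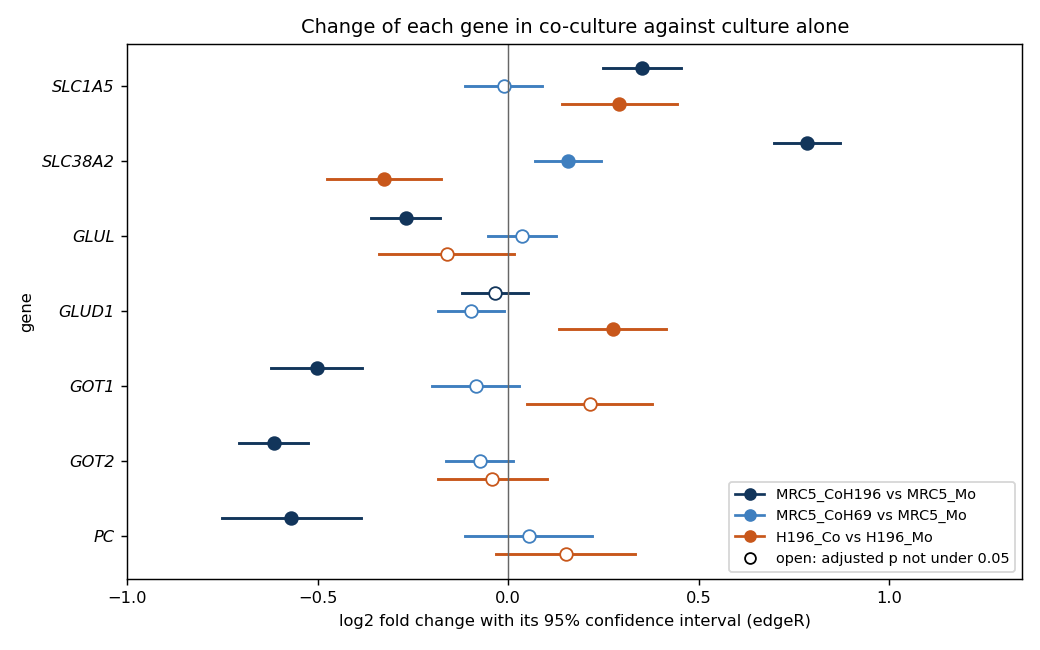
Log2 fold change (horizontal axis) of each gene in 3 comparisons of co-culture with culture alone, as points with 95% confidence intervals from edgeR; filled points have an adjusted p under 0.05. MRC5_CoH196 points reach from −0.62 for GOT2 to 0.78 for SLC38A2, MRC5_CoH69 points stay between −0.099 and 0.16, and SLC38A2 lies on opposite sides of 0 in the 2 lines.

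With H69 cells as partner, SLC38A2 alone of the 7 genes changed in fibroblasts, by 1.11-fold. Its MRC5_CoH69 libraries had 1006.1, 991.2 and 1012.2 CPM, above each MRC5_Mo library, and the log2 fold change was 0.16 (SE 0.0420, adjusted p = 0.0226). With 1 library left out the log2 fold change stayed between 0.13 and 0.18, but the call was lost in 5 of 9 such fits. The adjusted p was 0.0877, 0.0536 and 0.0691 without MRC5_CoH69 replicate 1, 2 or 3, and 0.102 and 0.164 without MRC5_Mo replicate 2 or 3. The call was also lost with limma on log2(FPKM + 1) (adjusted p = 0.113). 1 of 7 members called compares with 6.7% of all genes tested, and 0 past the fold limit with 0.554%. The libraries of 2 members, SLC38A2 and GLUD1, did not overlap between the groups, against 25.7% of all genes. The other members had log2 fold changes between −0.099 for GLUD1 (adjusted p = 0.173) and 0.054 for PC. GLUD1 had 139.6, 138.5 and 143.1 CPM, below each MRC5_Mo library. GLUL had 114.7, 118.1 and 115.5 CPM and SLC1A5 299.3, 304.1 and 274.9 CPM. Both overlapped MRC5_Mo, with 95% intervals of the fold from 0.964 to 1.09 and from 0.924 to 1.06. GOT2 had 125, 121.8 and 121.7 CPM and a 95% interval of the fold from 0.893 to 1.01, and GOT1 43, 37.9 and 39.8 CPM and an interval from 0.871 to 1.02.

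Set directly against each other, the 2 co-cultures differed for the same 6 genes as MRC5_CoH196 and MRC5_Mo did. Both comparisons hold the MRC5_CoH196 libraries. SLC38A2 was 1.54-fold and SLC1A5 1.29-fold higher with H196 than with H69 (log2 fold changes 0.63 and 0.36, adjusted p = 1.37e-12 and 4.35e-07). PC had 17.7, 17.1 and 15 CPM with H69 and the largest fall, −0.62 (SE 0.0881, adjusted p = 7.94e-07), followed by GOT2 at −0.54, GOT1 at −0.42 and GLUL at −0.31. GLUD1 had 0.064 (adjusted p = 0.179) on counts and −0.0966 (adjusted p = 0.0475, limma) on log2(FPKM + 1), so its direction depended on the scale. Of all genes tested, 72.3% were called in this comparison. SLC38A2 and PC, 2 of 7, passed the fold limit, against 28.2%.

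H196 cells grown with fibroblasts showed another pattern: SLC38A2 fell, and SLC1A5 and GLUD1 rose. SLC38A2 had 501.3, 435.3 and 474.3 CPM in H196_Mo and 362.1, 392.5 and 371.3 CPM in H196_Co, a fold of 0.798. Its groups did not overlap, and the log2 fold change was −0.33 (SE 0.0715, adjusted p = 0.00327). SLC1A5 had 80.6, 81.3 and 82.3 CPM alone and 104.6, 91.7 and 102.7 CPM in co-culture, a log2 fold change of 0.29 (SE 0.0724, adjusted p = 0.00777). All 3 H196_Co libraries were higher, but on log2(FPKM + 1) its change was 0.18 and missed the threshold (adjusted p = 0.0736, limma). GLUD1 rose from 181.9, 172.5 and 181.6 CPM to 226.3, 214.5 and 207.5 CPM, a log2 fold change of 0.27 (SE 0.0672, adjusted p = 0.00708) with no overlap.

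3 of 7 members were called in H196, against 19.8% of the 12806 genes tested, and 0 of 7 passed the fold limit, against 3.86%. 2 were called higher, against 12% of all genes, and 1 lower, against 7.78%. The libraries did not overlap for 5 of 7 members, against 37.2% of all genes. GOT1 had 62.9, 68.4 and 69.3 CPM in H196_Mo and 84.1, 70 and 78.5 CPM in H196_Co. Its groups were apart by less than 1 CPM, and its log2 fold change of 0.21 had an adjusted p of 0.0604, or 0.0149 without H196_Co replicate 2. GLUL had 22.7, 23.8 and 24.5 CPM alone and 19.8, 21.4 and 22.3 CPM in co-culture, without overlap, and its log2 fold change was −0.16 (adjusted p = 0.188). On log2(FPKM + 1) that of GLUL was −0.25 and called (adjusted p = 0.0447, limma). PC overlapped between the groups, with 19.5, 22.9 and 21.9 CPM against 22.7, 24.1 and 24.7 CPM and a 95% interval of the fold from 0.979 to 1.26. GOT2 overlapped as well, with 136.4, 144.5 and 148.3 CPM against 142.1, 132.6 and 142.3 CPM and an interval from 0.879 to 1.07. On FPKM GOT2 did not overlap, at 66.9 to 70.3 in H196_Mo and 61.3 to 64.3 in H196_Co. Its change on log2(FPKM + 1) was −0.12 and not called (adjusted p = 0.16, limma). In the order of the 5 groups by FPKM, H196_Co and H196_Mo were overlapping neighbours for PC and, unlike on CPM, for GOT1, as were MRC5_Mo and MRC5_CoH69 for GLUL, SLC1A5, GOT1 and PC, while GOT2 overlapped between MRC5_Mo and H196_Co.

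The response to co-culture with the other line differed between MRC5 and H196 for 5 of 7 members. The test was of the difference itself over all 15 libraries (51.2% of 13585 genes called). 4 of 7 were past the fold limit, against 24.7%. The change in MRC5 minus that in H196 was 1.08 for SLC38A2 (SE 0.0792, adjusted p = 1.02e-11), which rose in fibroblasts and fell in H196 cells. It was −0.74 for GOT1 (SE 0.0953, adjusted p = 2.70e-07), −0.75 for PC (SE 0.124, adjusted p = 1.28e-05) and −0.60 for GOT2 (SE 0.0719, adjusted p = 8.59e-08), all of which fell in fibroblasts and did not pass the test in H196. GLUD1 had −0.34 (SE 0.0693, adjusted p = 0.00019). For SLC1A5, called as higher in both lines, the difference was 0.032 with a 95% interval of the ratio from 0.908 to 1.15 (adjusted p = 0.775), and for GLUL −0.13 (adjusted p = 0.194).

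Ratios within a library do not depend on how that library is scaled, and 4 were compared in 4 contrasts. With 3 libraries against 3, the exact two-sided permutation test cannot go below p = 0.1, so differences are given beside the pooled SD. The log2 ratio of SLC1A5 to SLC38A2 FPKM was −0.69 ± 0.0224 (SD, n = 3) in MRC5_Mo, −0.86 in MRC5_CoH69 and −1.15 in MRC5_CoH196, and it went the other way in H196, from −1.61 to −1.02. The MRC5_CoH196 libraries did not overlap MRC5_Mo but overlapped MRC5_CoH69, with replicate 1 at −0.95. GLUL to GLUD1 fell by 0.23 in MRC5_CoH196 (pooled SD 0.0626) and by 0.49 in H196_Co (pooled SD 0.109), without overlap in either line. In MRC5_CoH69 it went the other way, up by 0.14 (pooled SD 0.0418), also without overlap. PC to GLUD1 fell by 0.57 in MRC5_CoH196 (pooled SD 0.114) and overlapped in H196. GOT1 to GOT2 shifted toward the cytosolic enzyme in both lines, by 0.11 in MRC5_CoH196 (pooled SD 0.0288) and 0.25 in H196_Co (pooled SD 0.0609). In MRC5_CoH69 PC to GLUD1 and GOT1 to GOT2 overlapped MRC5_Mo.

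**Figure D3:**
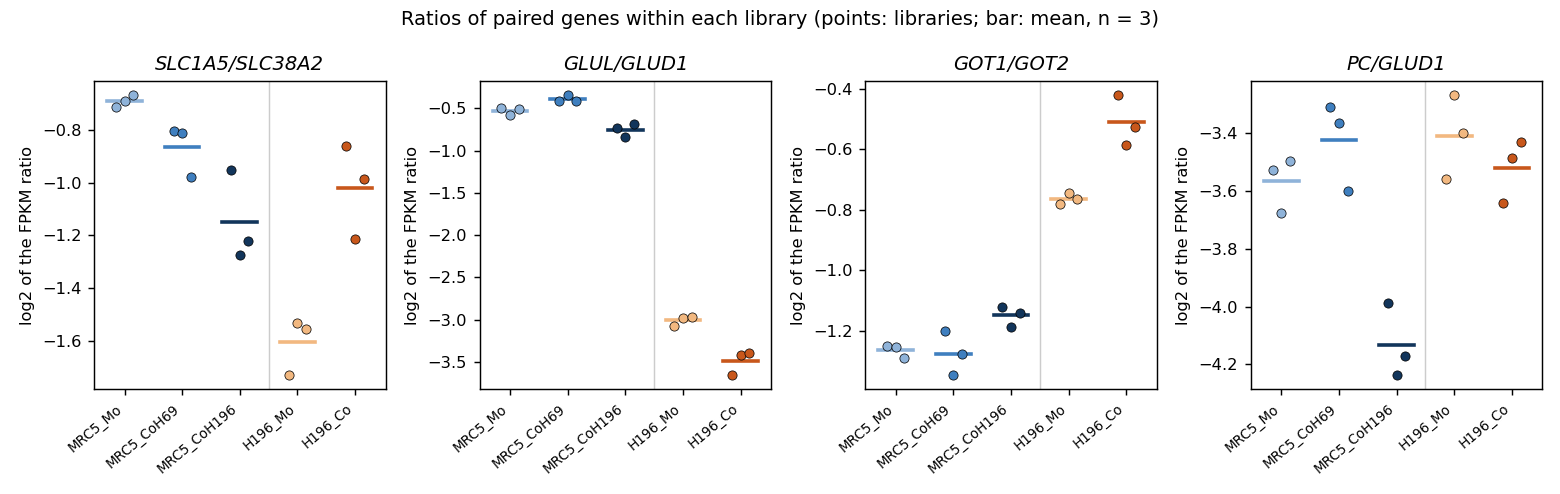
Log2 of the FPKM ratio of 2 genes within each library (vertical axis, separate range per panel), by group; points are libraries and bars the mean of 3. The SLC1A5 to SLC38A2 ratio goes down from −0.69 to −1.15 in MRC5 grown with H196 and up from −1.61 to −1.02 in H196 grown with MRC5.

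The 7 genes together summed to 520 ± 7.87 FPKM in MRC5_Mo, 531 ± 6.15 in MRC5_CoH69 and 590 ± 13.9 in MRC5_CoH196 (SD, n = 3). Within this sum the share of SLC38A2 went from 40.1% in MRC5_Mo to 43.4% and 54%, that of GOT2 from 12.1% to 11.2% and 6.20%, and that of SLC1A5 stayed between 23.9% and 24.9%. In H196 the sum was 325 ± 10.5 FPKM alone and 310.3 ± 3.37 in co-culture. There the share of SLC38A2 went from 32.9% to 26.1%, that of GLUD1 from 18.7% to 22.4% and that of GOT1 from 12.4% to 14.3%.

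65 further genes of the same metabolism, in 7 lists, show the surroundings of these changes. In MRC5_CoH196 20 of the 54 tested were higher than in MRC5_Mo, 25 lower and 9 not called, with a median log2 fold change of −0.045 against −0.003 over all genes, of which 37.2% were called higher and 37.1% lower. In H196_Co 13 of 54 were higher, 5 lower and 36 not called, with a median of 0.049 against −0.0015 over all genes, of which 12% were called higher and 7.78% lower. In MRC5_CoH69 1 of 54 was higher and 3 were lower: PFAS at −0.30 (adjusted p = 0.00143), SLC7A11 at −0.21 (adjusted p = 0.0136) and SLC3A2 at −0.18 (adjusted p = 0.0310).

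Other glutamine carriers moved in both directions in MRC5_CoH196, with 3 of 7 higher and 3 lower. SLC38A5, a relative of SLC38A2, rose by 1.12 on the log2 scale, while SLC38A7, a lysosomal glutamine exporter, had −0.78 and SLC7A6 −0.60. SLC7A5 and SLC3A2 are the light and heavy chains of the LAT1 exchanger that trades glutamine for leucine. In H196_Co they rose by 0.49 and 0.48 on the log2 scale, and SLC38A7 fell by 0.35. In MRC5_CoH196 SLC7A5 was also higher, at 0.53, while SLC3A2 was lower, at −0.21. Among 5 glutamate carriers tested in MRC5_CoH196, SLC1A1 had 0.99, the mitochondrial carrier SLC25A22 −1.08 and the cystine-glutamate exchanger SLC7A11 −0.51. SLC7A11 went up in H196_Co by 0.58, and its changes in the 2 lines differed (adjusted p = 1.43e-08 for the difference).

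Of the glutaminases and the enzymes that take nitrogen from glutamine, 6 of 11 were higher in MRC5_CoH196 and 3 lower. ASNS, asparagine synthetase, which uses both glutamine and aspartate, rose by 1.47 on the log2 scale, the most in this list, and it also rose in H196_Co by 0.83 (adjusted p = 5.10e-08). PFAS of purine synthesis had −1.52 and CTPS1 of pyrimidine synthesis −1.16. Of the glutamate aminotransferases and the proline and glutathione enzymes, 5 of 13 were higher and 4 lower. The largest changes were falls: PYCR3 of proline synthesis at −2.06, GCLM of glutathione synthesis at −0.95 and ALDH4A1 of proline breakdown at −0.81. Among those higher were PSAT1 at 0.77 and GCLC, also of glutathione synthesis, at 0.53. GCLM went the other way in H196_Co, at 0.52, where 5 of 13 were higher and 0 lower.

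The malate-aspartate shuttle, of which GOT1 and GOT2 are the aminotransferases, fell throughout in MRC5_CoH196: 5 of 5 further components were lower, beside 37.1% of all genes called lower, with a median of −0.38. The aspartate-glutamate carriers SLC25A13 and SLC25A12 had −1.03 and −0.73, and the malate carrier SLC25A11 −0.38. In H196_Co the same 2 aspartate-glutamate carriers were lower, by 0.25 and 0.30 on the log2 scale, and the other 3 components were not called. Of the aspartate users 6 of 9 were lower in MRC5_CoH196 and 3 higher, with UMPS of pyrimidine synthesis at −0.84. PCK2, which turns oxaloacetate into phosphoenolpyruvate in mitochondria, was higher in both lines, at 0.59 in MRC5_CoH196 and 0.56 in H196_Co. The malic enzymes ME1 and ME2 were lower in MRC5_CoH196, at −0.37 and −0.41.

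**Figure D4:**
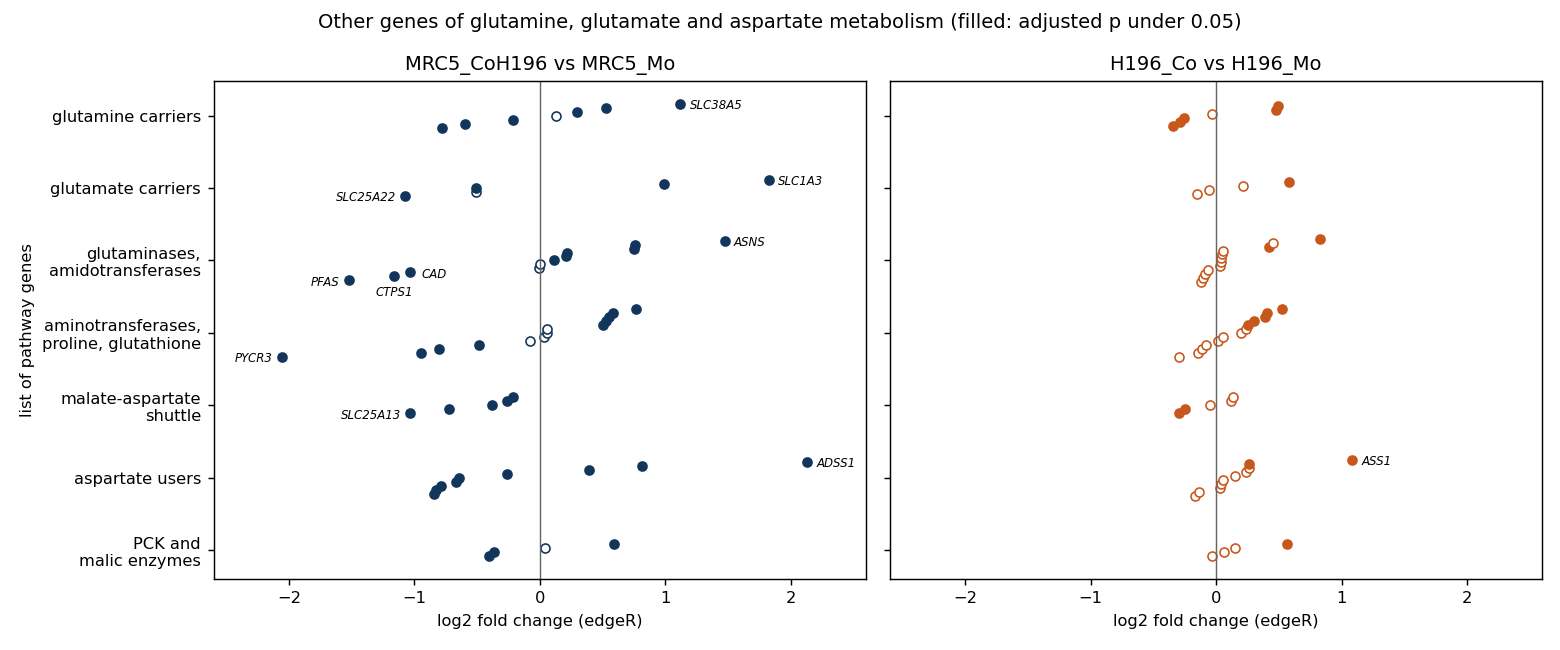
Log2 fold change from edgeR (horizontal axis) of the tested genes of 7 lists (rows) in MRC5_CoH196 against MRC5_Mo (left) and H196_Co against H196_Mo (right); each point is a gene, filled where its adjusted p was under 0.05, and genes beyond 1 in either direction are labelled. On the left the 5 shuttle genes all lie below 0, from −1.03 to −0.21, and ASNS lies at 1.47. SLC1A3 and ADSS1, furthest right, averaged under 10 CPM.

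The genes whose log2 CPM followed each member most closely over the 9 MRC5 libraries were ranked by Pearson's r, as a description: the libraries fall in 3 groups, and r carries the difference between groups. For SLC38A2 they were ARHGAP5, BMPR2 and OGFRL1, each at r = 0.998. For GOT2 they were ODC1, RMDN3 and GMPPB (r = 0.999 to 0.998), for GOT1 DHCR7, RBM28 and SMC1A (0.995 to 0.990), and for PC CREB3, CLEC16A and REX1BD (0.988 to 0.986). For SLC1A5 they were SLC22A18, TBC1D2 and CD151 (0.990 to 0.988), and for GLUL ANXA11 and CHD4 (0.994 and 0.991). GLUD1, which did not pass the test in MRC5_CoH196, had the loosest neighbours, SSX2IP, RBM25 and PLPP3 (0.933 to 0.910). Over the 6 H196 libraries the first genes were VEZF1 for SLC38A2, PHC2 for SLC1A5, MAPK8IP2 for GLUL, KDM1A for GLUD1, C7orf26 for GOT1, CDK4 for GOT2 and FHOD1 for PC, at r = 0.995 to 0.999, and none of these was among the genes named for MRC5.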

How the data were processed

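mRNA was enriched with oligo(dT), sequenced by BGI and, per the study's methods, cleaned with SOAPnuke and aligned to GRCh38.p13. The submitters' processing notes name HISAT2 2.1.0, Bowtie2 2.3.4.3 and RSEM 1.3.1. The authors deposited a table per line with expected counts, estimated per gene and not normalized, and FPKM, normalized by the authors for length and depth. 12 H196 and 18 MRC5 per-library columns of TPM and normalized counts were not used. The authors' fold changes, p-values and q-values hold their own comparisons and were not used.

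Expected counts were rounded and tested with edgeR 4.0.16 in R 4.3.3 (TMM, filterByExpr, quasi-likelihood F-test, two-sided, Benjamini-Hochberg over all genes tested): the 9 MRC5 libraries in one model, the 6 H196 libraries in another, and all 15 over shared genes for comparisons between the lines. A gene was called at an adjusted p under 0.05. SE was taken from the F statistic, as the size of the log2 fold change over root F. Scripts were tested on simulated counts. Replicate libraries of a group all differed beyond sampling noise. Alternatives were limma 3.58.1 on log2(FPKM + 1) or log2(FPKM + 0.1), DESeq2 1.42.0, other filters, limits and size factors, and leaving out libraries.

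The members, lists and motifs were chosen with earlier results of these data known. Of each list, the up to 3 called genes with the largest absolute change and at least 10 CPM on average are named. For MRC5_CoH196, PSAT1, GCLC, SLC7A5 and SLC3A2 are named in addition. A few genes that this rule names are not reported here. CPM of markers use library totals alone. Precision is limited by 3 libraries per group, and counting intervals were not used.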

Additional observations from a re-analysis of the deposited data

Results flagged for a closer look

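For 5 of the 7 genes the change in co-culture differed between the lines, by edgeR's quasi-likelihood test of the difference over 15 libraries, as it did for 51.2% of all genes tested. The log2 change in MRC5_CoH196 minus that in H196_Co was 1.08 for SLC38A2, −0.74 for GOT1, −0.75 for PC, −0.60 for GOT2 and −0.34 for GLUD1. The calls held without any single library, with the differences between 1.03 and 1.18 for SLC38A2 and between −0.36 and −0.25 for GLUD1. Line, culture medium and table cannot be told apart in this comparison.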

How the results depend on the processing

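The 6 calls in MRC5_CoH196 against MRC5_Mo and against MRC5_CoH69 held, with their direction, under DESeq2, other size factors, other filters, an adjusted p under 0.01, the groups compared alone, and without any library. The number of members called moved with the limits: above 0.58 it was 2 in each of these comparisons, 0 for MRC5_CoH69 against MRC5_Mo, 0 in H196 and 3 between the lines grown alone, and above 1 it was 0 in each of the 4 comparisons within a line, 1 for the difference between lines and 3 between the lines grown alone. The single call in MRC5_CoH69 gave 0 at an adjusted p under 0.01 and with limma on either FPKM scale, and 0 to 1 without one library (0 without any MRC5_CoH69 replicate or MRC5_Mo replicate 2 or 3). In H196 the count was 3 to 4 without one library (4 without H196_Co replicate 2). Over all genes, MRC5_CoH69 had 859 calls, 386 at an adjusted p under 0.01, 71 and 9 above 0.58 and 1, 404 and 386 on the FPKM scales, and 495, 561, 406 and 384 without MRC5_CoH69 replicate 1 or 2 or MRC5_Mo replicate 2 or 3. H196 had 2538, 1188 at an adjusted p under 0.01, 494 and 147 above those limits, and 1559 and 1656 without H196_Co or H196_Mo replicate 3.

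Signs turned as follows. With limma on log2(FPKM + 1) and log2(FPKM + 0.1), GLUD1 between the 2 co-cultures had −0.0966 and −0.0985, the difference between lines for SLC1A5 −0.030 and −0.033, and MRC5_Mo against H196_Mo −0.219 and −0.222 for GLUD1, −0.118 and −0.119 for GOT2 and −0.316 and −0.372 for PC. Without one library, SLC1A5 in MRC5_CoH69 against MRC5_Mo ran from −0.0402 to 0.0283 (the latter without MRC5_CoH69 replicate 3), its difference between lines from −0.0151 (without H196_Co replicate 2) to 0.131, and PC between the lines grown alone from −0.0210 (without H196_Mo replicate 1) to 0.0919. None of these genes was called on counts in that comparison, apart from GLUD1 and GOT2 between the lines. The median of all genes on log2(FPKM + 1) was −0.13, −0.14, −0.063 and −0.34 in MRC5_CoH196 against MRC5_Mo, against MRC5_CoH69, in H196 and between the lines. Of the genes called, 34.8% were higher there in MRC5_CoH196 against MRC5_Mo (50% on counts), 33.3% against MRC5_CoH69 (49.3%), 36.4% in H196 (60.8%) and 33.2% between the lines (49.2%). Relative to that median, an alternative added after the data were seen, GLUD1 and GOT2 between the lines had 0.12 and 0.22. The TMM factors, applied to counts but not to FPKM, ran from 0.814 to 1.26 over all 15 libraries. They ran from 0.916 to 1.05 in the MRC5 model and from 0.959 to 1.04 in the H196 model. Their part in the shift was not tested.

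With the replicate number as a block, 6, 1, 6, 3, 5 and 6 members were called in the 6 comparisons, as without it. Libraries of the same number did not deviate together (correlations −0.116 to 0.081 in MRC5 and −0.151 to 0.0334 in H196). The check thus showed no pairing by number, but with 3 libraries per group it cannot exclude one.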
